A study of Mus musculus with 6 samples.

Results

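The clock output factors are transcription factors that carry the circadian clock from its core loop to other genes, or that feed back on that loop. They were read here from RNA-seq of the hindlimb gastrocnemius (GAS) muscles of Kvβ2 knockout (KO) and wildtype (WT) mice. The 10 genes were chosen by name, as the PAR-bZIP family and its antagonist (*Dbp*, *Tef*, *Hlf*, *Nfil3*), the REV-ERB and ROR receptors (*Nr1d1*, *Nr1d2*, *Rora*) and the repressors *Bhlhe40*, *Bhlhe41* and *Ciart*. Of the 37979 genes of the table, 9 were found by symbol and *Ciart* by its gene identifier, since the table lists it under the older symbol Gm129. All 10 passed the filter on low expression. The study sampled 3 KO and 3 WT mice, all male, untreated and about 20 weeks old, with 1 library per mouse and the replicate numbers 1, 7 and 8 in each genotype. Both genotypes came from crosses of mice heterozygous for a Kvβ2 null allele. The deletion is present in all cells of the KO mice and not only in muscle. The hour at which the muscles were taken, the strain background and the lighting schedule are not given in the sources used here. A rhythmic gene can differ between mice with the hour alone, so the hour of sampling and the genotype cannot be told apart in these data.

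The core of the clock is a loop in which CLOCK and BMAL1 (encoded by *Arntl*) activate genes through the E-box, CACGTG, and the PER and CRY proteins that they induce switch them off. REV-ERB receptors repress and ROR receptors activate at a shared element, and *Arntl* and *Nfil3* are among their targets. DBP, TEF and HLF activate at the D-box, where NFIL3 (also called E4BP4) represses. In skeletal muscle these factors are known for rhythms of metabolic genes, with *Dbp* and *Nr1d1* among the transcripts of largest daily swing.

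The sequences below are shown because they hold the clock element letters of these genes' own promoters. They come from RefSeq start sites on GRCm38.p6 and cover parts of the 250 bases before a start. Of the 10 genes, 9 had such a window and *Tef* had 2 of them, which made 10 windows. CACGTG, searched on both strands like all motifs here, stood in 6.02% of all 32851 promoter windows of the reference. It was found for *Ciart*, *Bhlhe41* and *Tef*. *Ciart* held 3 copies, at positions -116, -58 and -44 relative to the start, and 3 or more copies stood in 20 of all windows (0.0609%). Capitals mark the motif, each sequence is written in the direction of its gene, and coordinates follow each name.
*Ciart* E-boxes, minus strand of chr3:95882252-95882364: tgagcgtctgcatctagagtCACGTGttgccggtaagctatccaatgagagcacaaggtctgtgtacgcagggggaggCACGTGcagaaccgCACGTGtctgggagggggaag
*Bhlhe41* E-box, minus strand of chr6:145865559-145865593: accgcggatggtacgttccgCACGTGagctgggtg
*Tef* E-box at its downstream start, plus strand of chr15:81811256-81811301: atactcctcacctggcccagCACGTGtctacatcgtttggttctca
*Nr1d1* E'-box, minus strand of chr11:98775380-98775425: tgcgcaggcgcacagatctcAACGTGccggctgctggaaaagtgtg
*Nfil3* REV-ERB and ROR element, minus strand of chr13:52981040-52981059: ctcggaacTGACCTActaac
The *Nr1d1* stretch holds CACGTT on the opposite strand, so it reads AACGTG, and 3.85% of all windows hold that motif. The *Nfil3* stretch holds TAGGTCA on the opposite strand, so it reads TGACCTA, which 2.23% of windows hold, and it lies inside an annotated exon of *Nfil3*. The D-box letters TTATGTAA (0.819% of windows) and TTACGTAA (0.113%) and the element TGGGTCA (3.24%) were found in none of the 10 windows. A match of letters is a description and not a measured binding site.

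The libraries were first checked against their labels. *Kcnab2*, the gene of Kvβ2, reached FPKM (fragments per kilobase of transcript, normalized to a library's mapped fragments) of 0.233, 0.10 and 0.110 in the WT libraries. KO replicate 7 had 0.0151 FPKM, and KO replicates 1 and 8 are listed at 0 (two-sided exact permutation p = 0.1, which is as low as 3 against 3 can go). The summed FPKM of 5 skeletal muscle markers was 52190 to 63095 in KO and 38419 to 58600 in WT muscle, which fits the labelled tissue. Depth, estimated from low FPKM values, was 14000000 to 18140000 fragments in KO and 19260000 to 20220000 in WT libraries. At this depth 1 fragment on a transcript of 1 kilobase was worth 0.0495 to 0.0714 FPKM, and the lowest value of any clock output factor was 2.62 FPKM. The genotypes were compared with limma on log2(FPKM + 0.1) over 12334 genes, with Benjamini-Hochberg adjustment. At an adjusted p under 0.05, 31 genes were higher and 9 were lower in KO muscle, and after correction for GC content 6 were higher and 8 lower. Slow fiber markers summed to 9.17 FPKM in WT replicate 8 against 117 to 653 in the other libraries. Adipocyte markers summed to 587 FPKM in KO replicate 7 against 233 to 438 in the others. Most of each sum was *Fabp4*, at 450 FPKM in KO replicate 7 and 217 to 409 FPKM in the others. *Adipoq*, *Plin1* and *Cfd* had 40.4, 7.37 and 89.0 FPKM in KO replicate 7, against at most 11.4, 1.37 and 27.9 FPKM elsewhere. Of the 4 adipocyte markers, 3 were higher in KO muscle at an unadjusted p under 0.05 by limma, against 15.3% of tested genes, and 0 passed the adjusted threshold.

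None of the 10 factors passed the test between genotypes, 0 of 10 against 0.324% of all tested genes (0.251% higher and 0.073% lower in KO muscle). At an unadjusted p under 0.05 the count was 1 of 10, *Ciart*, against 26.2% of tested genes in either direction. The KO value was higher for 7 of 10, against 51% of tested genes, with a median log2 fold change of 0.22 for the 10 genes and 0.01 for all tested genes. The genotypes did not overlap for 1 gene, *Rora*, which was lower in KO muscle, a pattern that 16.2% of tested genes showed. The limma p-values set the difference between genotypes against the spread between the mice sampled, moderated by a trend over all tested genes. In bulk muscle, fewer cells of a type and less RNA per cell cannot be told apart.

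**Figure D1:**
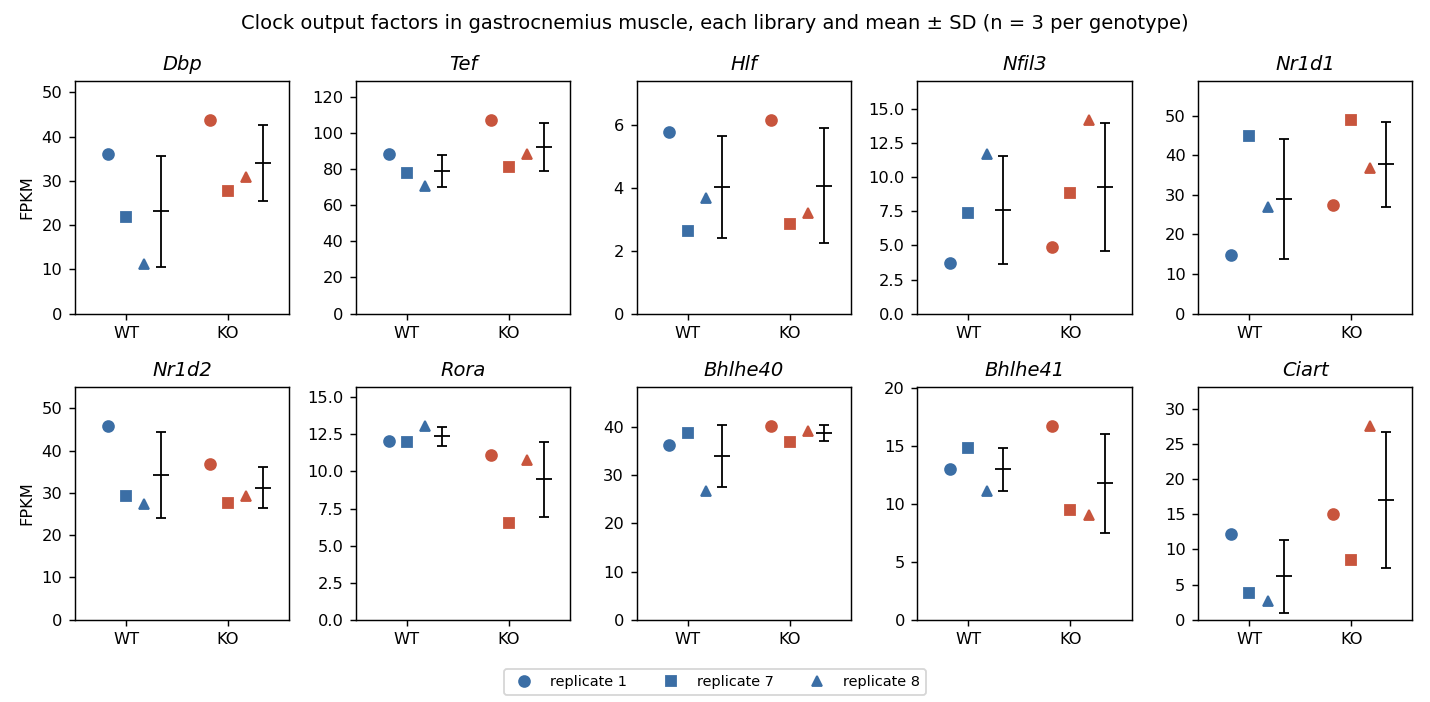
FPKM of the 10 clock output factors in each GAS library of WT (blue) and KO (red) mice, with a marker shape for each replicate number and the mean ± SD (n = 3) beside each group. The libraries of the genotypes overlap for each gene but *Rora*, and *Ciart* spans the widest range, from 2.63 to 27.6 FPKM.

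Among the PAR-bZIP activators, *Dbp* and *Hlf* varied widely between mice of a genotype and *Tef* did so little. *Dbp* (ENSMUSG00000059824, chromosome 7, 45705088 to 45710203 of GRCm38) encodes the family member with the strongest rhythm in most tissues. WT replicates 1, 7 and 8 had 36.2, 21.9 and 11.3 FPKM of it, and the same KO replicates had 43.8, 27.6 and 30.8 FPKM. The WT libraries spread from the lowest to nearly the highest value of the 6, and WT replicate 1 lay above KO replicates 7 and 8. WT muscle averaged 23.1 ± 12.5 and KO muscle 34.1 ± 8.59 FPKM (SD, n = 3 each), and the log2 fold change was 0.68 (95% interval -0.24 to 1.61, limma adjusted p = 0.304). WT replicate 8 decided much of this. Leaving it out gave a log2 fold change of 0.25, and leaving out WT replicate 1 gave 1.08.

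*Tef* (ENSMUSG00000022389, chromosome 15, 81802421 to 81826863) was the most abundant of the 10 factors and among the steadiest. The WT libraries had 88.17, 77.7 and 70.4 FPKM (replicates 1, 7 and 8, as in all such sets of values here) and the KO libraries 107, 81.1 and 88.18 FPKM. Its highest and lowest libraries differed 1.52-fold, while those of *Dbp* differed 3.89-fold. The log2 fold change was 0.22 (95% interval -0.11 to 0.55, adjusted p = 0.350 by limma). WT replicate 1 lay above KO replicate 7, so the genotypes overlapped. *Hlf* (ENSMUSG00000003949, chromosome 11, 90336536 to 90390895), the third PAR-bZIP gene, was the least abundant factor. Its WT values were 5.79, 2.62 and 3.67 FPKM and its KO values 6.17, 2.84 and 3.21 FPKM. In both genotypes replicate 1 stood well above the others, and the log2 fold change was 0.0058 (95% interval -0.84 to 0.85, adjusted p = 0.994 by limma). The sign of so small a value turned without KO replicate 1 (-0.33), WT replicate 7 (-0.26) or WT replicate 8 (-0.02).

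*Nfil3* (ENSMUSG00000056749, chromosome 13, 52967209 to 52981073) encodes the repressor that competes with the PAR-bZIP activators at the D-box. Its libraries ran in the opposite order to *Dbp* in WT muscle, with 3.74, 7.38 and 11.7 FPKM. The KO libraries had 4.86, 8.86 and 14.2 FPKM. In both genotypes replicate 1 was lowest and replicate 8 highest, and the 2 sets of values interleaved. WT muscle averaged 7.59 ± 3.96 and KO muscle 9.30 ± 4.68 FPKM (SD, n = 3 each), with a log2 fold change of 0.30 (95% interval -0.82 to 1.43, adjusted p = 0.714 by limma). It was -0.13 without WT replicate 1 and -0.06 without KO replicate 8.

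The ratio of activator to repressor transcripts differed widely among mice of the same genotype. The ratio of *Dbp* to *Nfil3* FPKM was 9.68, 2.97 and 0.967 in WT and 9.02, 3.12 and 2.17 in KO replicates 1, 7 and 8. That of *Tef* to *Nfil3* was 23.6, 10.5 and 6.04 in WT and 22.1, 9.15 and 6.21 in KO replicates. For *Hlf* to *Nfil3* it was 1.55, 0.355 and 0.315 in WT and 1.27, 0.321 and 0.226 in KO replicates. In each genotype replicate 1 had the highest and replicate 8 the lowest of all 3 ratios. *Nfil3* is shared by the ratios, so they are not separate observations.

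The REV-ERB genes encode heme-binding receptors that repress through the NCOR and HDAC3 complex. *Nr1d1* (ENSMUSG00000020889, chromosome 11, 98767932 to 98775333), the gene of REV-ERBα, had WT values of 14.9, 44.9 and 26.9 FPKM. Its KO values were 27.4, 48.9 and 36.7 FPKM. Replicate 7 was highest and replicate 1 lowest in both genotypes, and WT replicate 7 lay above KO replicates 1 and 8. The log2 fold change was 0.48 (95% interval -0.43 to 1.40, adjusted p = 0.453 by limma), and 0.077 without WT replicate 1. *Nr1d2* (ENSMUSG00000021775, chromosome 14, 18204054 to 18239127), the gene of REV-ERBβ, had replicate 1 highest instead. The WT libraries had 45.8, 29.3 and 27.3 FPKM and the KO libraries 36.7, 27.6 and 29.3 FPKM. Its log2 fold change was -0.10 (95% interval -0.60 to 0.40, adjusted p = 0.791 by limma), and it turned to 0.13 without WT replicate 1.

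Beside its target *Arntl*, *Nr1d1* was arranged differently. *Arntl* had WT values of 1.84, 11.7 and 10.5 FPKM and KO values of 2.62, 4.18 and 3.80 FPKM. The ratio of *Nr1d1* to *Arntl* FPKM was 8.08, 3.85 and 2.56 in the WT and 10.5, 11.7 and 9.65 in the KO libraries. The ratio was thus nearly even among the KO libraries, and all 3 lay above all 3 WT libraries, although both of its genes overlapped between the genotypes. With the GC correction the log2 fold change of *Nr1d1* was 0.06 and that of *Arntl* -0.72, against 0.48 and -0.80 without it. The ratio is a description of these libraries. It was not tested, and no share over other gene pairs was computed.

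*Rora* (ENSMUSG00000032238, chromosome 9, 68653786 to 69388246) encodes a ROR receptor, which activates at the element where REV-ERB represses. The WT libraries were nearly alike at 12.0, 12.0 and 13.1 FPKM, and the KO libraries had 11.1, 6.55 and 10.7 FPKM. The highest KO library was lower than the lowest WT library, and KO replicates 1 and 8 were close to it. WT muscle averaged 12.4 ± 0.612 and KO muscle 9.48 ± 2.54 FPKM (SD, n = 3 each). The log2 fold change was -0.42 (95% interval -0.90 to 0.06, adjusted p = 0.236 by limma, exact permutation p = 0.1). KO replicate 7 decided its size, and the value without that library was -0.17. That library had the highest summed FPKM of adipocyte markers (587), of Schwann cell markers (82.8 against 12.1 to 59.6 in the others), of macrophage and leukocyte markers (10.9 against 2.34 to 7.08) and of endothelial markers (43.0 against 32.7 to 37.0). The part of these markers in the *Rora* value was not tested. *Rorb*, another ROR gene, was under the filter.

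*Bhlhe40* and *Bhlhe41* encode DEC1 and DEC2, repressors that bind E-boxes. *Bhlhe40* (ENSMUSG00000030103, chromosome 6, 108660629 to 108666925) had 36.3, 38.8 and 26.7 FPKM in the WT libraries and 40.2, 37.0 and 39.1 FPKM in the KO libraries. All libraries but WT replicate 8 lay within 36.3 to 40.2 FPKM. The log2 fold change of 0.21 (95% interval -0.15 to 0.57, adjusted p = 0.413 by limma) was 0.046 without that library. *Bhlhe41* (ENSMUSG00000030256, chromosome 6, 145858243 to 145865558) had 13.0, 14.8 and 11.1 FPKM in the WT libraries and 16.7, 9.48 and 9.06 FPKM in the KO libraries. Its KO libraries held both the highest and the lowest value of the 6. The log2 fold change was -0.19 (95% interval -0.76 to 0.38, adjusted p = 0.644 by limma), and it was -0.47 without KO replicate 1.

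*Ciart* (ENSMUSG00000038550, chromosome 3, 95878503 to 95882251), also called CHRONO, encodes a repressor of CLOCK and BMAL1 and is the gene with 3 E-boxes in the sequence above. WT replicates 1, 7 and 8 had 12.2, 3.78 and 2.63 FPKM. KO replicates 1, 7 and 8 had 14.99, 8.47 and 27.6 FPKM. KO replicate 8 was the highest and WT replicate 8 the lowest library, 10.5-fold apart, while WT replicate 1 lay above KO replicate 7. WT muscle averaged 6.19 ± 5.20 and KO muscle 17.0 ± 9.70 FPKM (SD, n = 3 each), a 2.75-fold ratio of the means. The log2 fold change of 1.59 (95% interval 0.18 to 3.01) was the largest of the 10, with an unadjusted p = 0.0322 and an adjusted p = 0.158 by limma and an exact permutation p = 0.2. Leaving out each library in turn moved it from 1.15 (without WT replicate 8) to 2.23 (without WT replicate 1). The unadjusted p stayed under 0.05 without KO replicate 7 or WT replicate 1, and was above it without any of the other 4 libraries. KO replicate 8 and WT replicate 8 also had the highest and the lowest sum of slow fiber markers, 653 and 9.17 FPKM, whose part in the *Ciart* values was not tested.

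**Figure D2:**
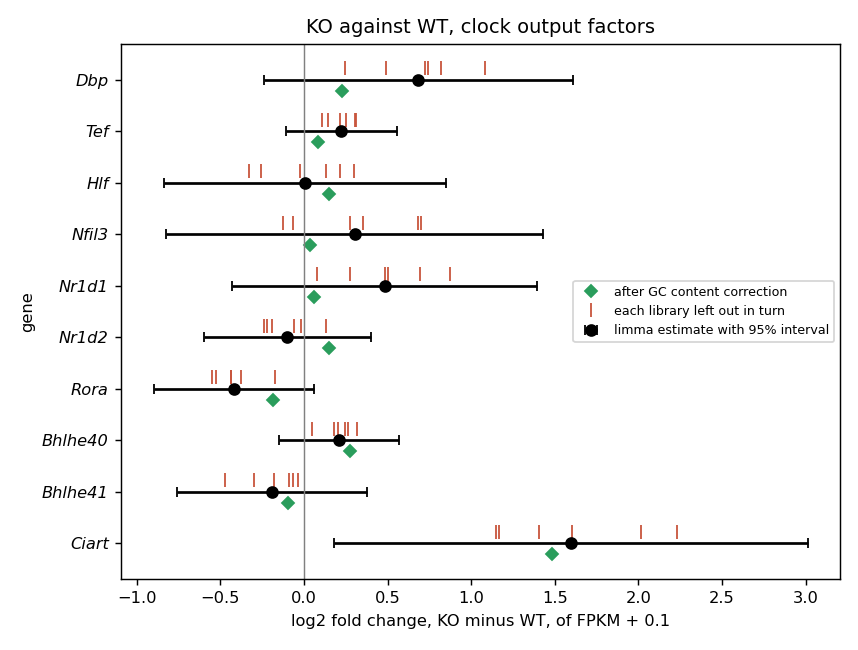
Log2 fold change of each factor, KO minus WT, on the log2(FPKM + 0.1) scale, with the 95% interval of limma (black), the values with each library left out in turn (red ticks) and the value after GC content correction (green). The interval of *Ciart* lies above 0, from 0.18 to 3.01, and those of the other 9 genes include 0.

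Over all tested genes the fold change was higher where transcripts were richer in GC (Spearman's rho = 0.70 across genes, which are not independent replicates), so each factor was set beside that trend. The GC content of the 10 factors ran from 44.0% for *Nr1d2* to 57.2% for *Dbp*, with a median of 50.5% against 50.1% for all tested genes. *Dbp* and *Nr1d1*, the most GC-rich of the 10, went from log2 fold changes of 0.68 and 0.48 to 0.23 and 0.06 once the libraries were corrected for the trend. *Nfil3* went from 0.30 to 0.04 and *Tef* from 0.22 to 0.08. *Rora*, at 44.5% GC, went from -0.42 to -0.19, and *Nr1d2* from -0.10 to 0.15. *Hlf*, *Bhlhe40* and *Bhlhe41* had corrected values of 0.15, 0.27 and -0.09. *Ciart* went from 1.59 to 1.48, and then had an unadjusted p = 0.0518 by limma, just above 0.05. After the correction 0 of 10 factors were thus under 0.05, beside 692 higher and 637 lower of 11985 genes. What the GC trend reflects was not tested.

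**Figure D3:**
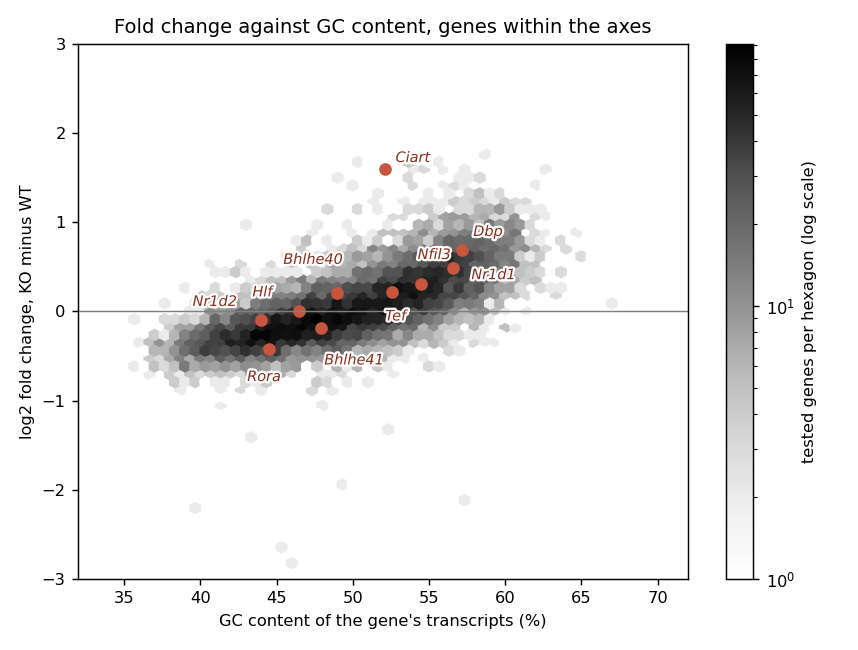
Log2 fold change (KO minus WT) against the GC content in percent of a gene's annotated transcripts, for the tested genes within the axes (grey hexagons, darker with more genes on a log scale) and the 10 clock output factors (red). The factors other than *Ciart* lie inside the dense band of all genes, which rises with GC content, and *Ciart* lies above it at 52.1% GC.

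Of the 10 factors, 8 varied among mice of a genotype more than most genes did. The SD within genotypes exceeded that of 97.1% of tested genes for *Ciart*, 95.8% for *Nfil3*, 93.7% for *Dbp*, 93.4% for *Nr1d1* and 91.8% for *Hlf*. *Tef* and *Bhlhe40* were at 40.2% and 47.2%, near the middle of all genes, and *Rora*, *Nr1d2* and *Bhlhe41* between 70.2% and 80.01%. Replicate 1 was the highest library of its genotype in both KO and WT for 4 factors (*Dbp*, *Tef*, *Hlf* and *Nr1d2*), against 11.7% of tested genes. It was the lowest in both for *Nfil3* and *Nr1d1*, against 14.7%. Replicate 7 was highest or lowest in both genotypes for 3 factors (18.7% of tested genes) and replicate 8 for 2 (22.2%). The sources used here do not say what the numbers stand for. WT replicate 8, the library with few slow fiber transcripts, had the lowest value of all 6 libraries for *Dbp*, *Tef*, *Nr1d2*, *Bhlhe40* and *Ciart*. For *Nr1d2* the margin was small, at 27.3 against 27.6 FPKM in KO replicate 7. The share of all tested genes that were lowest in WT replicate 8 is not given here. The part of fiber type in the values of these factors was not tested.

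**Figure D4:**
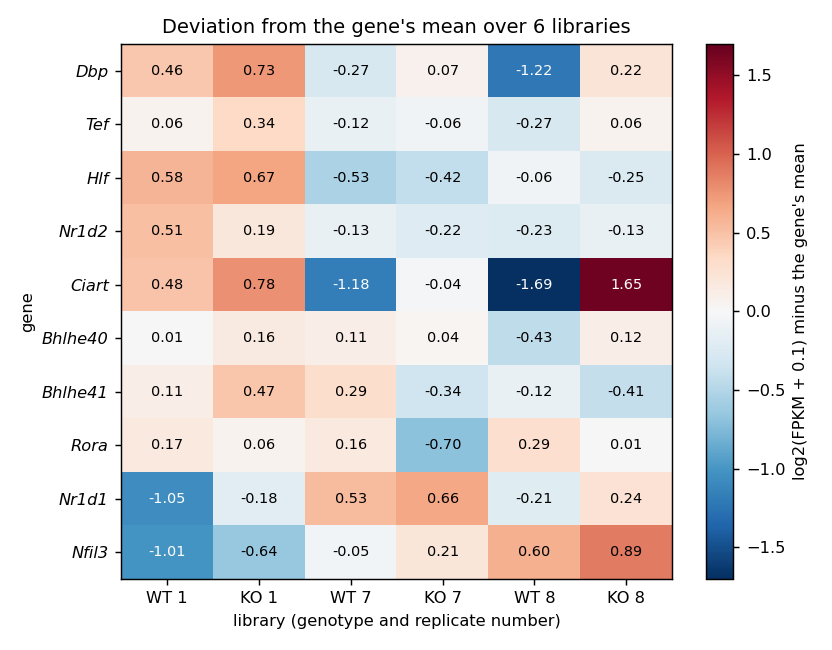
Log2(FPKM + 0.1) of each factor in each library, minus its own mean over the 6 libraries, with the value printed in each cell (red above and blue below the mean). *Dbp*, *Tef*, *Hlf* and *Nr1d2* are highest in replicate 1 of both genotypes, while *Nfil3* and *Nr1d1* are lowest there.

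By level, *Tef* stood apart from the other factors, with a mean of 85.4 FPKM over the 6 libraries and a range above that of the next gene. *Bhlhe40* (36.3 FPKM), *Nr1d1* (33.3), *Nr1d2* (32.7) and *Dbp* (28.6) followed, and these 4 did not differ beyond their spread. *Dbp* was above *Bhlhe41* (12.4 FPKM) in 6 of 6 libraries, although their ranges over all libraries overlapped. *Bhlhe41*, *Ciart* (11.6 FPKM), *Rora* (10.9) and *Nfil3* (8.45) each overlapped the gene next in order, and *Hlf* (4.05) was last. FPKM is a level per length, so these genes can be set side by side.

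The genes with the most similar profiles were sought for *Dbp*, *Nr1d1* and *Nfil3*, and other factors were not among the 4 nearest of any of these. Likeness was the root mean square distance between log2(FPKM + 0.1) profiles, each centred on its own mean over the 6 libraries. Nearest to *Dbp* were *4732418A04Rik*, *Fam180a*, *Gstt2* and *Fmo2*, at distances of 0.15 to 0.18. Nearest to *Nr1d1* were *Plcd3*, *Clec4a3*, *Rara* and *Itgam*, at 0.15 to 0.18. Nearest to *Nfil3* were *Gm5526*, *BC068281*, *Tnfrsf12a* and *Cad*, all at 0.27. Of the other factors, *Tef* ranked 292, *Bhlhe40* 303 and *Nr1d2* 502 in nearness to *Dbp* among the tested genes. Most of these nearest genes were low. All but *Fmo2* (4.40 to 13.7 FPKM) and *Tnfrsf12a* (6.05 to 19.2 FPKM) had at most 3.97 FPKM in any library. The lowest, *Clec4a3*, had 0.190 to 0.762 FPKM, so its profile rests on few fragments. The names and ranks are given as a description.

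The genes around the factors were read from lists of the same pathways, and 0 genes of any list passed the adjusted threshold. The counts below use an unadjusted p under 0.05, which 15.3% of tested genes had with higher and 10.9% with lower values in KO muscle. With the GC correction, 692 of 11985 genes had it with higher and 637 with lower values. Of the core clock genes, 7 of 8 were tested, with 2 higher (*Per1* and *Cry2*), 2 lower (*Clock* and *Cry1*) and a median log2 fold change of 0.48. *Per3*, a core clock gene with a strong daily rhythm, had WT values of 10.9, 3.91 and 3.40 FPKM and KO values of 9.03, 6.16 and 7.21 FPKM (log2 fold change 0.48, adjusted p = 0.476 by limma). It was thus highest in replicate 1 of both genotypes, as *Dbp* was. With the GC correction *Per1* and *Cry1*, at 1.35 and -0.65, stayed under the unadjusted threshold, and *Cry2* and *Clock*, at 0.33 and -0.44, did not. *Npas2*, a relative of *Clock*, was under the filter.

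The corepressors through which REV-ERB acts were all tested, with 2 of 6 higher and 2 lower and a median log2 fold change of -0.08. *Gps2*, a subunit of the complex, had 20.6 to 21.3 FPKM in WT and 28.8 to 31.2 FPKM in KO muscle (log2 fold change 0.52, adjusted p = 0.0667 by limma). *Tbl1x* and *Tbl1xr1*, which exchange corepressors for coactivators, had log2 fold changes of -0.38 and -0.48. After correction for GC content the values of these 3 genes were 0.15, -0.19 and -0.19, none under the unadjusted threshold.

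The next list held genes that PAR-bZIP factors are known to activate in liver and brain. Of 4, 3 were tested, 3 of 3 were higher in KO muscle at an unadjusted p under 0.05, and their median log2 fold change was 0.60. *Por*, the electron donor of cytochrome P450 enzymes, had WT values of 2.95, 3.86 and 4.39 FPKM and KO values of 4.75, 10.5 and 6.06 FPKM (adjusted p = 0.135 by limma). *Alas1*, the first enzyme of heme synthesis, was at 35.6 to 46.0 FPKM in WT and 48.7 to 58.8 FPKM in KO muscle (adjusted p = 0.135 by limma). *Pdxk*, which activates vitamin B6, was at 1.31 to 1.78 FPKM in WT and 2.18 to 2.48 FPKM in KO muscle (adjusted p = 0.0981 by limma). The genotypes did not overlap for any of the 3, as for 18.3% of tested genes in that direction. With the GC correction their log2 fold changes went from 0.85, 0.39 and 0.60 to 0.39, 0.21 and 0.36, and 0 of the 3 genes were then under the unadjusted threshold.

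Of the other clock-controlled genes, 2 of 7 were higher and 0 lower, with a median log2 fold change of 0.41. *Usp2*, a ubiquitin protease, had a log2 fold change of 0.70 (0.42 after GC correction), and *Tcap*, a sarcomere protein under clock control in muscle, had 0.97 (0.33 after GC correction). Of the kinases and ubiquitin ligases that set the stability of PER and CRY proteins, 7 of 8 were tested, with a median log2 fold change of -0.09. The kinase genes *Csnk1e*, with a log2 fold change of 0.76, and *Csnk2a1*, with -0.29, were under the unadjusted threshold, and the GC-corrected values were 0.38 and -0.02. With that correction *Usp2*, *Tcap*, *Csnk1e* and *Csnk2a1* were no longer under it.

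Some factors share transcribed bases with a gene on the opposite strand. *Bhlhe41* shares 1280 exonic bases (19% of its own) with *Gm43909*, which has no row in the table used here. *Dbp* shares 539 exonic bases (18% of its own) with *Sphk2*, which had a mean of 5.06 FPKM, and *Nr1d1* shares 263 (8.55%) with *Thra*, at 26.7 FPKM. The library kit marks strand, but whether strand was used in counting is not given in the sources used here, so the part of a partner gene in these values was not tested.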

How the data were processed

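RNA from gastrocnemius of 3 KO and 3 WT animals was sequenced with a strand-marking mRNA kit, 1 library per mouse. The authors mapped reads to GRCm38 with TopHat and deposited Cufflinks FPKM values of 37979 genes; tool versions and the annotation release are not given in the sources used here. No counts were tested. The depth was estimated from low FPKM values of genes with 1 transcript, of which 87.4% to 90.7% lay within 0.15 of a whole fragment.

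Differences were tested with limma 3.58.1 (R 4.3.3) with a variance trend on log2(FPKM + 0.1), for genes averaging 0.5 FPKM or more over the libraries. The pseudocount understates the change of low genes. Adjusted p-values are Benjamini-Hochberg over all 12334 tested genes. Single values were tested by exact permutation, two-sided. The fit was tested on simulated data. GC content, coordinates and exon overlaps came from GENCODE vM21, in which 32916 identifiers were found. GC content was known for 97.2% of tested genes, and the correction subtracted a loess curve (span 0.3) from each library's deviations. Promoter windows came from RefSeq (GRCm38.p6).

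The 10 factors and the lists were chosen with earlier results of these data known. The text names these factors, *Kcnab2*, the core clock genes, genes of the other lists at an unadjusted p under 0.05, and the 4 nearest profiles of *Dbp*, *Nr1d1* and *Nfil3*. Other names were chosen after their values were seen. Alternatives covered the pseudocount, filter, scaling, variance trend, array weights, replicate block, GC content, genes listed at 0 and each library left out. Protein sequences were not used here. Some genes of the lists are not reported here by name.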

Additional observations from a re-analysis of the deposited data

How the results depend on the processing

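Of 170 fold changes (10 factors under 17 alternatives), 158 kept their direction and side of the threshold, 11 turned in sign and 1 passed it. That was *Ciart* with array weights, at a log2 fold change of 2.36 (limma adjusted p = 0.00954). Array weights also turned *Nr1d1* to -0.17 and *Nr1d2* to 0.036. The GC content correction, without and with the replicate block, turned *Nr1d2* to 0.15, and scaling to the median turned *Hlf* to -0.0073. With each library left out in turn, log2 fold changes ran from -0.33 to 0.30 for *Hlf*, -0.13 to 0.70 for *Nfil3* and -0.24 to 0.13 for *Nr1d2*.

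Against 1 factor at an unadjusted p under 0.05, there were 0 without the variance trend and 4 with array weights. There were 0 with the GC correction and 0 to 2 with a library left out. Of 12334 tested genes, 1891 were higher and 1339 lower at that threshold in the main fit. The counts were 1834 and 1223 without the variance trend and 2777 and 2316 with array weights. With the GC correction they were 692 and 637 of 11985 genes. With a library left out they ran from 1402 to 1922 higher and 763 to 1326 lower. Against 31 genes higher and 9 lower in KO muscle by limma, the counts were 7 and 4 with a pseudocount of 1, 1863 and 1284 with array weights, and 1 and 0 without genes listed at 0 (1952 and 1299 at an unadjusted p under 0.05). The higher count was 9 without the filter, 12 without the variance trend and 6 with the GC correction. With a library left out, counts ran from 6 to 103 higher and 6 to 23 lower, with both highest without WT replicate 8. The cause was not tested.

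Same-numbered libraries correlated at -0.03, -0.08 and 0.03 (numbers 1, 7 and 8) in their deviations over all genes, so the numbers were not treated as pairs. With the number as a replicate block, 6 genes were higher and 7 lower at an adjusted p under 0.05 by limma. At an unadjusted p under 0.05, 1754 of 12334 genes were higher and 1030 lower. Among the genes at that unadjusted threshold were 4 factors (*Dbp*, *Nfil3*, *Nr1d1* and *Ciart*). With the block and the GC correction, 5 genes were higher and 7 lower at the adjusted threshold. At the unadjusted threshold, 616 of 11985 genes were then higher and 515 lower, with 0 factors among them.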

Other observations

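Genes induced by stress hormones and by acute stimuli were read beside the clock output factors, from lists of glucocorticoid-responsive and immediate early genes. Of 6 glucocorticoid-responsive genes, 3 had higher values in KO muscle at an unadjusted p under 0.05 and 0 had lower values, with a median log2 fold change of 0.43 and 0 past the adjusted threshold. The Krüppel-like factor genes *Klf15* and *Klf9* had log2 fold changes of 1.07 (adjusted p = 0.0758 by limma) and 0.41 (0.123), and *Zbtb16*, a known target of the glucocorticoid receptor, had 0.60 (0.0936). Of the immediate early genes, 6 of 7 were tested, with 2 higher at an unadjusted p under 0.05 (*Junb*, 1.62, and *Ier2*, 1.06) and a median of 1.32, against 0.01 for all tested genes. With the GC correction *Klf15* (0.77), *Klf9* (0.49) and *Junb* (0.97) stayed under the unadjusted threshold, and *Zbtb16* (0.29) and *Ier2* (0.42) did not.

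*Fos* and *Egr1*, chosen after their values were seen, were highest in KO replicate 8 and lowest in WT replicate 8, as *Ciart* was. *Fos* was at 14.9, 1.73 and 0.281 FPKM in WT and 9.67, 1.77 and 47.3 FPKM in KO replicates 1, 7 and 8. *Egr1* was at 7.08, 1.72 and 0.531 FPKM in WT and 8.33, 1.97 and 12.5 FPKM in KO replicates. The part of these genes in the *Ciart* values was not tested.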
